A study of Mus musculus with 6 samples.

Results

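NF-kappaB is a family of transcription factors built from pairs of 5 related subunits, and its activity is set by inhibitors that hold the pairs in the cytoplasm. In RNA-seq of mouse colon, 10 genes of that system were taken by symbol from a table of 22354 genes: the subunits Nfkb1, Nfkb2, Rel, Rela and Relb, and the inhibitors and brakes Nfkbia, Nfkbib, Nfkbie, Nfkbiz and Tnfaip3. All 10 were found, each in 1 row, and all 10 were among the 14180 genes that passed the filter on low counts. The rule takes them by symbol and uses no measured value, and the set was proposed with earlier results of these data known.

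The tissue came from mice with the genotype named Smad4Lrig1, labelled SMAD4_KO (called KO, 3 libraries), and from SMAD4+ control mice, labelled SMAD4_WT (called WT, 3 libraries). All mice had the C57BL/6J strain label and had received tamoxifen 1 month earlier, which in inducible lines switches on a recombinase, so the controls share the drug. Smad4 is the partner that receptor-activated Smads of TGF-beta and BMP signals share, and Lrig1 is a marker of gut stem and progenitor cells. The labels do not spell out the driver, the deleted exons, the age or the sex, and no label says that animals were pooled. Crypts were removed from the colon, the layer left on the muscle was collected by scraping, and the RNA was sequenced in single-end reads of 51 bases. Since the labels count the mice of each group, each library was taken as 1 mouse.

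The library totals were 21194104 to 22821486 counts in KO and 18918880 to 25867997 counts in WT. The targeted gene Smad4 stood at 92.0, 102.1 and 59.0 CPM (counts relative to the library total, scaled by TMM) in KO and at 131.7, 152.6 and 111.0 CPM in WT, with all 3 KO libraries below all 3 WT libraries but no call over all genes (adjusted p = 0.338, edgeR). Epithelial markers stood far above fibroblast markers in this layer, which was labelled as left after crypts were removed. The epithelial list holds no crypt-specific marker, so it does not show whether crypts remained. The 15 epithelial markers summed to 37427 to 40534 CPM in KO and 35056 to 44984 CPM in WT, with the epithelial adhesion gene Epcam at 2384 ± 109.1 CPM in KO and 2199 ± 47.7 CPM in WT. The 10 fibroblast markers summed to 23.4 to 32.1 CPM in KO and 13.5 to 18.6 CPM in WT, with the collagen gene Col1a1 at 1.12 ± 0.666 CPM in KO and 0.504 ± 0.197 CPM in WT (SD, n = 3 each). WT replicate 1 stood apart by its smooth muscle markers, which summed to 61.0 CPM there and to 14.4 to 17.8 CPM in the other 5 libraries.

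In the classical pathway, signals from TNF, interleukin 1 and Toll-like receptors activate the IkappaB kinase complex, which marks the inhibitors for destruction and frees pairs such as p50 with RelA. In the alternative pathway, receptors for lymphotoxin, CD40 ligand and BAFF stabilise the kinase NIK (Map3k14), which leads to processing of the Nfkb2 product and frees pairs of p52 with RelB. Several of the inhibitors are themselves NF-kappaB targets and act as feedback. In the colon both epithelial and immune cells use the system, and in lymphocytes c-Rel, the product of Rel, has a leading part.

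The stretches of 250 bases upstream of the RefSeq start sites (build GRCm38.p6, which is mm10) are shown for the 4 genes that differed most by unadjusted p. Capitals mark each match to the kappaB consensus, a motif of 10 letters searched on both strands, with overlapping matches joined into 1 stretch.
Rel, chr11:23770970-23771219, minus strand: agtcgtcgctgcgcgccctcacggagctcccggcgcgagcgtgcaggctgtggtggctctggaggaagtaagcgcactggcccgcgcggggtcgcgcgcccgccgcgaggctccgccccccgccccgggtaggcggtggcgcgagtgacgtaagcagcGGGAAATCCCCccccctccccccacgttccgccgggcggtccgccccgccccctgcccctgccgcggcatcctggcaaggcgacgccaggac
Nfkbie, chr17:45555450-45555699, plus strand: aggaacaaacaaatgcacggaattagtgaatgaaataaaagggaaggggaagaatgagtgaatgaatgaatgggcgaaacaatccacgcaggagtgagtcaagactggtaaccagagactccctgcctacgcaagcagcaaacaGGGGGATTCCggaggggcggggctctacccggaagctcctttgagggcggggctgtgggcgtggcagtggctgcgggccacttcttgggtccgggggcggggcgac
Tnfaip3, chr10:19015411-19015660, minus strand: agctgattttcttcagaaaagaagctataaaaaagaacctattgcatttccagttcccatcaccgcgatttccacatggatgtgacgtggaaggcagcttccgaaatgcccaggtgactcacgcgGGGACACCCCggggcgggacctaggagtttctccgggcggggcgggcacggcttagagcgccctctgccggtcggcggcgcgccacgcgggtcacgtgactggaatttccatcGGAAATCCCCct
Nfkbia, chr12:55492648-55492897, minus strand: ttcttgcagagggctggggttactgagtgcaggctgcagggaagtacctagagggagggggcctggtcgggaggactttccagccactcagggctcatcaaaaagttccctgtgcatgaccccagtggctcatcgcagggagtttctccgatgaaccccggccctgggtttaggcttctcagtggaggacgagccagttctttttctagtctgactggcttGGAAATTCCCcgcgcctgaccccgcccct

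RefSeq windows were matched by symbol for 7 of the 10 genes (Nfkb2, Rel, Rela, Nfkbia, Nfkbib, Nfkbie and Tnfaip3, in 10 windows), and not for Nfkb1, Relb and Nfkbiz. A match stood in at least 1 window for 5 of the 7, and across the table in 4.46% of 27025 genes (3.9% of 32851 windows). In the Rel window 3 overlapping matches form 1 stretch from base -92 to base -82 relative to the start site. The Nfkbie match lies from -106 to -97, and the Nfkbia match, read on the opposite strand, from -29 to -20. Tnfaip3 has matches from -125 to -116 and, on the opposite strand, from -12 to -3 in the window shown, and 0 matches in its other window. Nfkb2 also holds matches, and none of these letters were found in the windows of Rela and Nfkbib. The windows shown thus hold a match both for genes with higher KO means (Rel, Nfkbie and Tnfaip3) and for the gene with a lower one (Nfkbia), and a match describes the letters and not binding.

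Knockout was compared with wild type to ask which parts of the NF-kappaB system differ when Smad4 is targeted. Rel had the clearest difference of the 10 genes, with a KO mean 1.69-fold the WT mean, and Nfkbie followed at 1.5-fold. Tnfaip3 had a KO mean 1.28-fold the WT mean, and Nfkbia one of 0.803-fold. The other 6 genes had KO means between 0.919-fold and 1.12-fold of the WT mean. None of the 10 passed the quasi-likelihood test of edgeR with Benjamini-Hochberg adjustment over all genes at a threshold of 0.05, where 0% of all tested genes passed and the smallest adjusted p was 0.0958. At an unadjusted p under 0.05, 3 of the 10 were higher in KO (Rel, Nfkbie and Tnfaip3) and 1 was lower (Nfkbia), against 5.19% and 3.35% of all 14180 genes (8.54% in either direction). The KO values did not overlap the WT values for 4 of the 10 (13.3% of all genes), 3 above (Rel, Nfkbie, Nfkb2) and 1 below (Nfkbia), while 6.76% of all genes had all KO libraries above and 6.52% all below. In fits without 1 library, that unadjusted threshold was passed in 6 of 6 for Rel and Nfkbie, in 4 of 6 for Nfkbia (not without KO replicate 1 or 3) and in 2 of 6 for Tnfaip3 (without KO replicate 1 and without WT replicate 1). The median log2 fold change was 0.08 over the 10 genes and -0.01 over all tested genes.

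**Figure D1:**
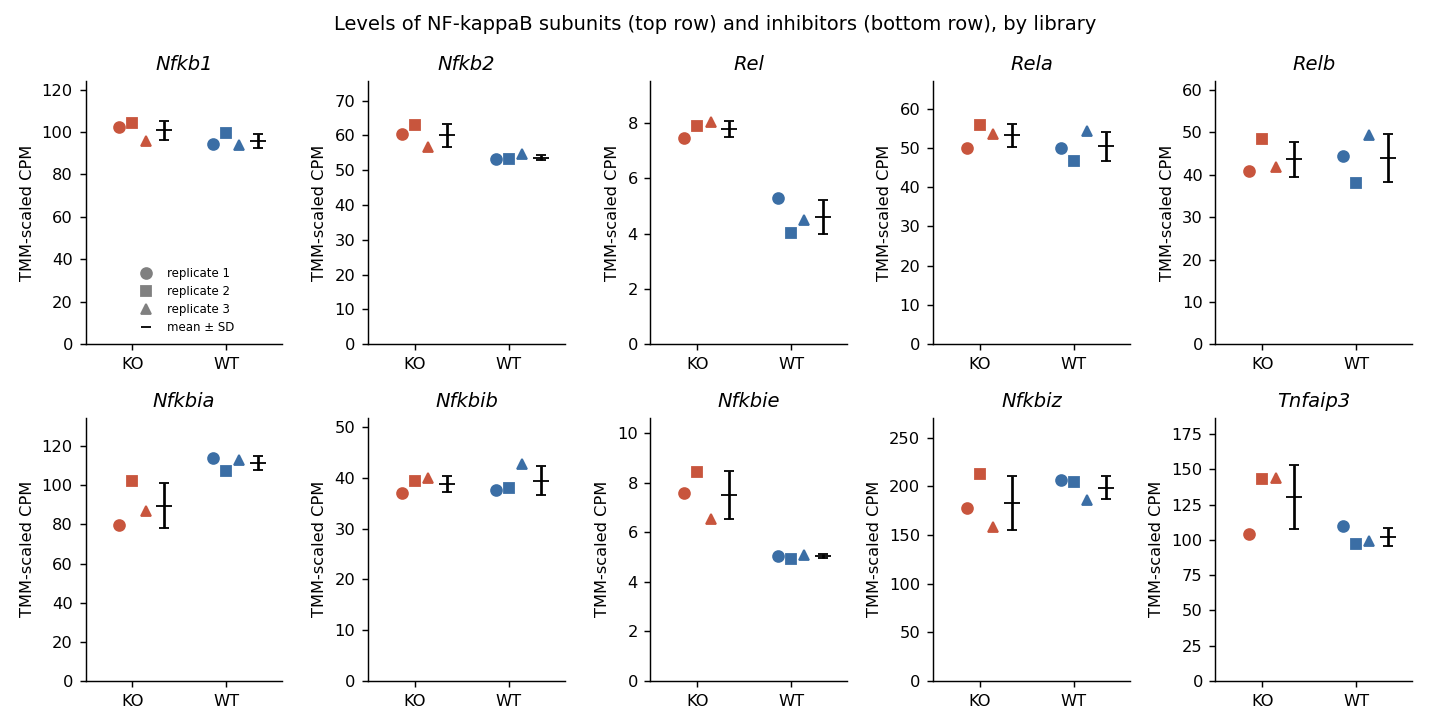
TMM-scaled CPM (vertical axes, from 0) of the 10 genes in the 3 KO and 3 WT libraries, with 1 symbol per replicate and the mean with SD at the right of each group. Rel and Nfkbie have all KO points above all WT points, Nfkbia has all KO points below, and Relb and Nfkbib overlap.

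The subunit genes were described first. Rel (ENSMUSG00000020275, chromosome 11, 23736847 to 23770970, mm10, minus strand, protein coding) encodes c-Rel, the subunit best known from lymphocytes. It was counted 162, 166 and 181 times in the KO libraries and 115, 75 and 113 times in the WT libraries. These counts gave 7.45, 7.89 and 8.04 CPM in KO and 5.28, 4.03 and 4.51 CPM in WT. The 3 KO libraries lay close together and above every WT library. The log2 fold change was 0.76 ± 0.16 (SE), with a 95% interval of 0.40 to 1.12, an unadjusted p of 0.00133 and an adjusted p of 0.12 in edgeR's quasi-likelihood test, which placed Rel at rank 157 of 14180. Rel rose by DESeq2 (adjusted p = 0.0113) and by the edgeR exact test (adjusted p = 0.00859), which called 2.31% and 2.71% of all genes, but not by limma-voom (adjusted p = 0.211). With DESeq2 the call was lost when any library other than WT replicate 1 was left out, with adjusted p-values of 0.1 to 0.141, while the log2 fold change of the quasi-likelihood fits stayed between 0.67 and 0.87.

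Rela (ENSMUSG00000024927, chromosome 19, 5637483 to 5648130, plus strand) encodes p65, the main activating partner of the classical pathway. It stood at 50.1, 55.9 and 53.6 CPM in KO and at 50.04, 46.7 and 54.3 CPM in WT. The groups overlapped, and the log2 fold change was 0.08 with a 95% interval of -0.12 to 0.28. The abundance of Rel transcripts relative to Rela transcripts was compared within each library, a pair chosen after its values were seen. Rel counts were 14.9%, 14.1% and 15.0% of the Rela counts in KO and 10.5%, 8.63% and 8.3% in WT. The log2 ratio was 0.69 ± 0.11 (SE) higher in KO, and all 3 KO libraries lay above all WT libraries (two-sided exact permutation p = 0.1, the smallest that 3 against 3 libraries can give).

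Nfkb1 (ENSMUSG00000028163, chromosome 3, 135584655 to 135691547, minus strand) encodes p105, the precursor of p50. Its level was 102.5, 104.2 and 95.8 CPM in KO and 94.4, 99.3 and 93.7 CPM in WT. KO replicate 3 lay inside the WT range, and the log2 fold change was 0.07 ± 0.07 (SE). Nfkb2 (ENSMUSG00000025225, chromosome 19, 46304320 to 46312385, plus strand) encodes p100, the precursor of p52. Its level was 60.3, 63.1 and 56.6 CPM in KO and 53.1, 53.2 and 54.5 CPM in WT. The KO libraries all lay above the WT libraries, by a small margin, with a log2 fold change of 0.16, a 95% interval of -0.0038 to 0.33 and an unadjusted p of 0.0543 in edgeR. Antisense genes share 11.6% (AC114539.1) and 6.52% (Psd) of the Nfkb2 exon length, and without a stated strand setting their reads cannot be told apart from those of Nfkb2.

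Relb (ENSMUSG00000002983, chromosome 7, 19606217 to 19629438, minus strand) encodes the partner of p52 in the alternative pathway. It stood at 40.8, 48.4 and 41.8 CPM in KO and at 44.4, 38.1 and 49.4 CPM in WT. The highest and the lowest values were both WT libraries, and the log2 fold change was -0.01 with a 95% interval of -0.28 to 0.26. With 3 mice a group, true differences of either sign within that interval remain compatible with these values.

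The inhibitors did not share a direction. Nfkbie (ENSMUSG00000023947, chromosome 17, 45555703 to 45563169, plus strand) encodes IkappaB-epsilon, an inhibitor that binds pairs holding RelA or c-Rel. It was counted 165, 178 and 147 times in KO and 110, 92 and 128 times in WT, or 7.59, 8.46 and 6.53 CPM in KO and 5.05, 4.94 and 5.10 CPM in WT. All KO libraries lay above the WT libraries, which were nearly equal to each other. The log2 fold change was 0.58 ± 0.15 (SE), with a 95% interval of 0.23 to 0.93, an unadjusted p of 0.00553 and an adjusted p of 0.215 in edgeR, and DESeq2 did not call it (adjusted p = 0.125). In the authors' deposited table, which calls 2.86% of the genes with an adjusted p, 2 of the 10 genes passed 0.05, namely Rel (log2 fold change 0.72, adjusted p = 5.46e-04) and Nfkbie (0.55, adjusted p = 0.0248).

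Nfkbia (ENSMUSG00000021025, chromosome 12, 55489410 to 55492647, minus strand) encodes IkappaB-alpha, the classical inhibitor and a rapid feedback target. It stood at 79.7, 102.2 and 86.8 CPM in KO and at 114.1, 107.4 and 113.0 CPM in WT. Every KO library lay below every WT library, with KO replicate 2 nearest to them. The log2 fold change was -0.32 ± 0.10 (SE), with a 95% interval of -0.55 to -0.08, an unadjusted p of 0.0155 and an adjusted p of 0.347 in edgeR. DESeq2 did not call it with all libraries (adjusted p = 0.238) and did so without KO replicate 2 (adjusted p = 0.0144). Nfkbia was thus lower in KO while Nfkbie was higher. Nfkbie counts were 9.52%, 8.28% and 7.52% of the Nfkbia counts in KO and 4.42%, 4.61% and 4.52% in WT. This log2 ratio, chosen after its values were seen, was 0.90 ± 0.10 (SE) higher in KO, with no overlap (two-sided exact permutation p = 0.1, the smallest possible). That outcome was fixed in advance, since all KO libraries lay above WT for Nfkbie and below WT for Nfkbia. The p-value of this ratio thus adds nothing to the results of the single genes.

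Tnfaip3 (ENSMUSG00000019850, chromosome 10, 19000910 to 19015657, minus strand) encodes A20, a ubiquitin-editing enzyme that ends signalling above the IkappaB kinases and is also a feedback target. It stood at 103.9, 143.0 and 143.6 CPM in KO and at 109.5, 97.3 and 99.0 CPM in WT. KO replicate 1 lay inside the WT range and the other 2 KO libraries well above it. The log2 fold change was 0.35 ± 0.13 (SE), with a 95% interval of 0.04 to 0.66, an unadjusted p of 0.0307 and an adjusted p of 0.491 in edgeR. Without KO replicate 1 it was 0.49, and DESeq2 then called it (adjusted p = 0.00334, against 0.334 with all libraries). Set against Nfkbia in the same library, Tnfaip3 was at 130.3%, 140.0% and 165.4% of the Nfkbia count in KO and at 96.0%, 90.6% and 87.6% in WT. This ratio, chosen in the same way, was 0.66 ± 0.11 (SE) higher in KO on the log2 scale. Again the groups did not overlap (two-sided exact permutation p = 0.1, and 0.1 adjusted over the 3 ratios). Since all KO libraries lay below WT for Nfkbia and 2 of 3 above WT for Tnfaip3, that p-value is no independent support. The fold changes of these 2 feedback genes had opposite signs.

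Nfkbib (ENSMUSG00000030595, chromosome 7, 28758251 to 28767512, minus strand) encodes IkappaB-beta, a slower inhibitor of the classical pathway. It stood at 37.0, 39.3 and 39.9 CPM in KO and at 37.5, 38.0 and 42.7 CPM in WT. The groups overlapped, with a log2 fold change of -0.03 and a 95% interval of -0.22 to 0.17. The antisense gene Ccer2 shares 14.5% of its exon length and Sirt2 shares 1.94%. Nfkbiz (ENSMUSG00000035356, chromosome 16, 55811375 to 55838899, minus strand) encodes IkappaB-zeta, a nuclear family member that acts on selected promoters together with p50. It stood at 177.9, 212.5 and 157.7 CPM in KO and at 206.1, 204.4 and 185.7 CPM in WT. The highest and the lowest values were both KO libraries, and the log2 fold change was -0.12 with a 95% interval of -0.40 to 0.15.

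**Figure D2:**
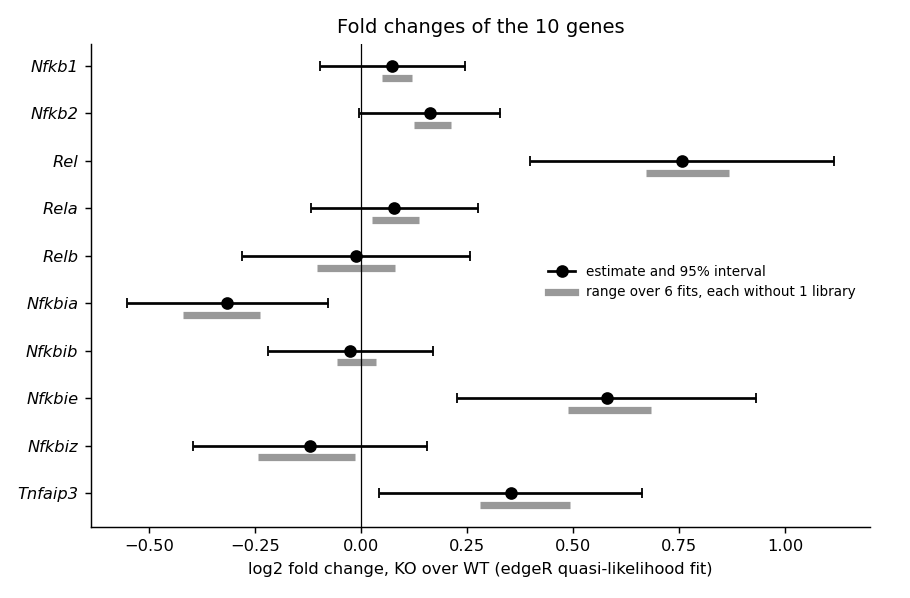
Log2 fold changes of KO over WT (horizontal axis) for the 10 genes, as points with 95% intervals, above grey bars for the range over 6 fits that each leave out 1 library. The intervals of Rel, Nfkbie and Tnfaip3 lie above 0, that of Nfkbia lies below 0, and those of the other 6 genes include 0.

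Within the KO group, replicate 2 was the highest of the 3 libraries for 7 of the 10 genes and the lowest for 0, and replicate 1 was the lowest for 6. Rel, Nfkbib and Tnfaip3 had their highest KO value in replicate 3. The margins over replicate 2 were small, at 8.04 against 7.89, 39.9 against 39.3 and 143.6 against 143.0 CPM. Within the WT group, replicate 3 was highest for 5 genes and replicate 2 lowest for 6.

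Levels were then compared between the genes per kilobase of annotated exon (CPM per kb, with all exons of GENCODE M21 merged, so that genes with rarely used long exons appear lower). Nfkbia had the highest level in both groups, at 55.6 ± 7.13 CPM per kb in KO and 69.2 ± 2.25 CPM per kb in WT. Nfkbiz was second, at 36.4 ± 5.53 in KO and 39.6 ± 2.26 CPM per kb in WT. Tnfaip3, Nfkbib and Rela followed, at 18.01, 17.9 and 17.3 CPM per kb in KO and 14.1, 18.2 and 16.4 CPM per kb in WT. In KO the neighbours among these 3 overlapped, and in WT Nfkbib overlapped with Rela while all Tnfaip3 values lay below both. Nfkb2 and Relb, the partners of the alternative pathway, were at 13.1 and 11.2 CPM per kb in KO and 11.7 and 11.3 CPM per kb in WT and also overlapped. Nfkb1 lay below them at 8.36 ± 0.370 in KO and 7.94 ± 0.256 CPM per kb in WT. Nfkbie was at 2.47 ± 0.317 in KO and 1.65 ± 0.0267 CPM per kb in WT, and Rel was lowest at 1.04 ± 0.0406 in KO and 0.617 ± 0.0841 CPM per kb in WT (SD, n = 3 each). The 2 genes with the largest fold changes were thus the 2 with the lowest levels.

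**Figure D3:**
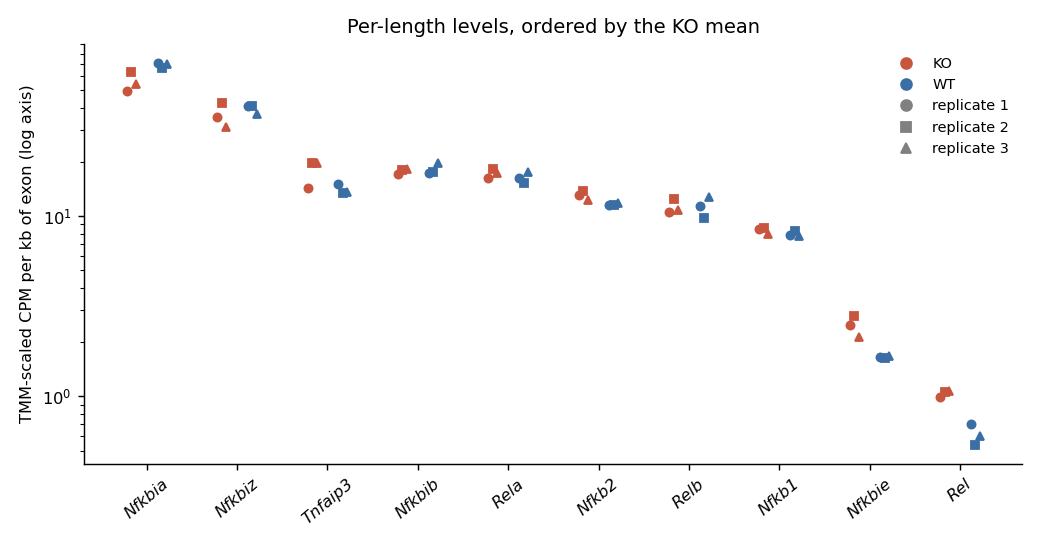
CPM per kilobase of exon on a log axis for each library, KO left of WT within each gene, with genes ordered by the KO mean. Nfkbia leads at 55.6 CPM per kb in KO and 69.2 CPM per kb in WT, and Nfkbie and Rel lie apart at the low end.

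All tested markers of B cells, T cells, macrophages and dendritic cells, fibroblasts and blood endothelium had positive fold changes, as did Rel and Nfkbie. Of 4 tested smooth muscle markers, 0 had a positive fold change. Their median log2 fold change was -1.87, with the sum of 61.0 CPM in WT replicate 1 given above. At an unadjusted p under 0.05, 5.19% of all genes were higher in KO, and DESeq2 called 1.97% of all genes as higher. All 14 B cell markers tested had an unadjusted p under 0.05 and a positive fold change, and DESeq2 called all 14. Their summed level was 241.2, 259.8 and 121.8 CPM in KO and 63.7, 47.4 and 47.6 CPM in WT, with the B cell receptor chain Cd79a at 15.3 ± 6.07 CPM in KO and 3.31 ± 1.23 CPM in WT (SD, n = 3 each). KO replicate 3 had the lowest B cell sum and the lowest Nfkbie level of the KO libraries. Its Rel level was the highest by a small margin (8.04 against 7.89 CPM in KO replicate 2), so nothing is read from that order. Of 11 tested T cell markers, 11 had a positive fold change and 7 an unadjusted p under 0.05, and DESeq2 called 3. All 12 summed to 58.7, 45.6 and 33.2 CPM in KO and 23.5, 28.0 and 27.8 CPM in WT. Of 11 tested macrophage and dendritic cell markers, 11 had a positive fold change and 7 an unadjusted p under 0.05. Their median log2 fold change was 1.09, and DESeq2 called 1 of them, the lysozyme gene Lyz2 (adjusted p = 6.46e-05). The sum over the 12 in the table overlapped between the groups, at 241.2, 181.3 and 194.8 CPM in KO and 199.9, 144.3 and 144.6 CPM in WT, but Cd14 alone, chosen after its values were seen, made up 133.1 CPM of it in KO and 131.0 CPM in WT on average. Of 7 tested fibroblast markers, 7 had a positive fold change and 4 an unadjusted p under 0.05. Their median log2 fold change was 1.16, and DESeq2 called 1. The proteoglycan gene Dcn, with the smallest unadjusted p of that list, was at 4.74, 4.99 and 6.22 CPM in KO and 1.74, 1.13 and 1.36 CPM in WT. It rose by DESeq2 (adjusted p = 1.60e-07), with its highest KO value in replicate 3. The sum of the fibroblast markers did not follow that order, at 32.1, 23.4 and 24.6 CPM in KO replicates 1, 2 and 3. The 8 blood endothelial markers (2 tested) summed to 3.55 to 6.49 CPM in KO and 2.80 to 3.17 CPM in WT. No marker of these lists in the table was at 0 in all libraries. The part of these cells in the Rel and Nfkbie differences was not tested, and in bulk tissue more cells of a type and more RNA per cell cannot be told apart.

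**Figure D4:**
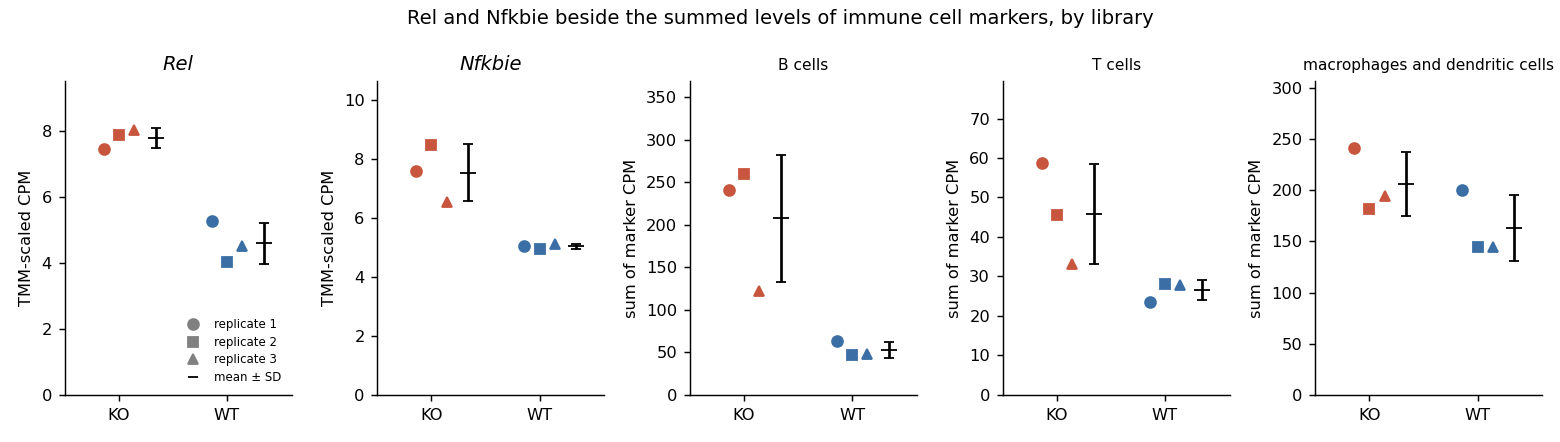
TMM-scaled CPM of Rel and Nfkbie and the summed CPM of B cell, T cell and macrophage and dendritic cell markers in each library, with mean and SD (n = 3). The B cell sum is 121.8 to 259.8 CPM in KO and 47.4 to 63.7 CPM in WT, with KO replicate 3 lowest of the KO libraries. Rel levels lie close together in KO, at 7.45 to 8.04 CPM.

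The rest of the pathway was described with 7 lists of 118 genes besides the 10, of which 96 were tested. These lists were also chosen with earlier results known, so their shares describe them and are no independent support. At an unadjusted p under 0.05, 14 of the 96 were higher in KO (14.6%, against 5.19% of all genes) and 2 were lower (2.08%, against 3.35%). The count in either direction was 16, and 28 without WT replicate 1, the library that stood apart. The share of all genes past that p was not counted in that fit. The same omission also raised the calls over all genes at the adjusted threshold, from 0 to 17 in edgeR and from 327 to 487 with DESeq2. With all libraries, none of the 96 passed the adjusted threshold in edgeR. DESeq2 then called 7 of them as higher and 0 as lower, where it called 1.97% of all genes as higher. The median log2 fold change of the 96 was 0.06.

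Of the 7 lists, the ligands and receptors of the alternative pathway had the largest share past that p. Of its 9 tested genes, 9 had a positive fold change and 5 an unadjusted p under 0.05 (5.19% of all genes were higher at that p). The median log2 fold change was 0.47, and DESeq2 called 3 as higher, against 1.97% of all genes. Tnfrsf13c, the BAFF receptor of B cells, was at 10.8, 13.4 and 6.13 CPM in KO and 2.39, 2.42 and 2.59 CPM in WT. Ltb, which encodes lymphotoxin-beta, was at 10.8, 13.7 and 5.33 CPM in KO and 2.94, 2.85 and 3.83 CPM in WT. Cd40, a receptor of B cells and other antigen-presenting cells, was at 2.53, 1.95 and 0.977 CPM in KO and 0.642, 0.215 and 0.279 CPM in WT. These 3 genes rose by DESeq2 (adjusted p = 1.13e-07, 3.91e-04 and 0.0134), and their KO libraries stood in the same order of replicates 1 and 2 above 3 as the B cell sum given above. Lta, another of the 5 and named after its values were seen, had the same order, at 1.75, 1.62 and 0.80 CPM in KO. In WT it was at 0.50, 0.48 and 0.48 CPM, and DESeq2 did not call it (adjusted p = 0.143). Tnfrsf1b, a TNF receptor gene also among the 5 and named in the same way, was at 98.2, 110.7 and 129.3 CPM in KO. Its WT levels were 97.1, 73.5 and 73.2 CPM, and its highest KO value was in replicate 3.

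Of 15 tested ligands and receptors of the classical pathway, 4 were higher at an unadjusted p under 0.05 and 0 lower, with a median log2 fold change of 0.08. For Tlr9, a DNA sensor of B cells and dendritic cells, the log2 fold change was 2.33 ± 0.36 (SE), and the gene rose by DESeq2 (adjusted p = 3.86e-05). The cytokine gene Il18, made by epithelial cells among others, was at 75.1, 95.4 and 107.2 CPM in KO and 54.3, 52.4 and 68.4 CPM in WT and also rose by DESeq2 (adjusted p = 0.00595). Il1b had a log2 fold change of 1.52 ± 0.42 (SE), at 1.46 ± 0.682 CPM in KO and 0.508 ± 0.124 CPM in WT (SD, n = 3 each), and was not called by DESeq2 (adjusted p = 0.179).

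Between the receptors and the 10 genes stand the kinases, adaptors and other brakes, of which 4 of 49 tested (8.16%) were past that p, close to the 8.54% of all genes. Of 13 kinases tested, 0 were higher and 1 was lower at an unadjusted p under 0.05, with a median log2 fold change of -0.01. That gene was Ikbke, an IkappaB kinase relative also used in interferon signalling, at 58.01, 59.2 and 55.4 CPM in KO and 71.8, 68.0 and 73.2 CPM in WT (log2 fold change -0.30 ± 0.07, SE; adjusted p = 0.159 in edgeR). Tab1, a partner of the kinase TAK1, and Ripk1, a kinase at the TNF receptor, had log2 fold changes of -0.24 ± 0.13 and 0.19 ± 0.12 (SE). Of 18 adaptors and ubiquitin ligases, 2 were higher and 1 lower, with a median of 0.04. Traf5, an adaptor of TNF receptors, had 0.66 ± 0.22 (SE), Traf3, which keeps NIK low, 0.19 ± 0.08, and Rnf31, the catalytic part of the linear ubiquitin ligase, -0.24 ± 0.10. Of 18 other inhibitors and brakes, 0 were past that p in either direction, with a median of 0.03, and the A20-binding proteins Tnip3 and Tnip1 had 0.34 ± 0.16 and -0.26 ± 0.14 (SE). Tax1bp1, an adaptor of A20, had -0.13 ± 0.09.

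Target genes of NF-kappaB were described in 2 lists. Of 20 tested inflammatory targets, 2 were higher and 0 lower at an unadjusted p under 0.05, against 5.19% and 3.35% of all genes. Their median log2 fold change was 0.03. Vcam1, an adhesion molecule of endothelium and follicle stroma, was at 2.14 ± 0.705 CPM in KO and 0.558 ± 0.251 CPM in WT and rose by DESeq2 (adjusted p = 0.0125). Gadd45b, a stress-induced survival gene, was at 14.1 ± 0.376 CPM in KO and 10.5 ± 2.08 CPM in WT, and Il15, a cytokine for lymphocytes, at 7.3 ± 0.234 CPM in KO and 9.16 ± 1.29 CPM in WT (SD, n = 3 each). Of 4 tested targets of the alternative pathway, 1 was past that p, namely Cxcl13, the chemokine that draws B cells into follicles. It was at 7.64, 11.3 and 2.71 CPM in KO and 1.33, 0.591 and 1.52 CPM in WT and rose by DESeq2 (adjusted p = 5.97e-05). Icosl and Tnfsf13b, the co-stimulatory ligand for ICOS and the gene of BAFF, had log2 fold changes of 0.41 ± 0.18 and 0.36 ± 0.31 (SE).

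**Figure D5:**
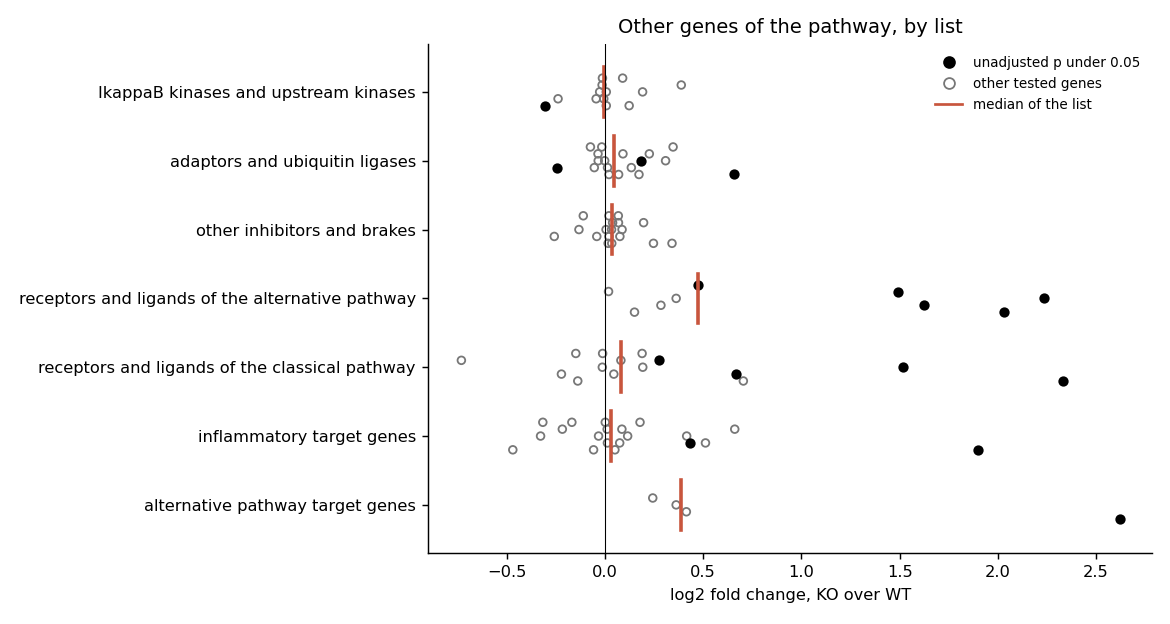
Log2 fold changes of KO over WT (horizontal axis) for the tested genes of the 7 pathway lists, with genes at an unadjusted p under 0.05 filled and the list median as a line. The alternative pathway receptors and ligands have the highest median, 0.47, and the medians of the kinases, adaptors, other inhibitors and inflammatory targets lie between -0.01 and 0.04.

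The genes most like Rel and Nfkbia over the 6 libraries were also listed, as a description from 9245 genes with a mean of at least 10 CPM. For Rel these were the phosphatase gene Ptpn1 (Pearson r = 0.997), the kinase gene Cdk17 (r = 0.979) and the DNA repair gene Xpc (r = 0.971). Their log2 fold changes were 0.27, 0.29 and 0.18, smaller than the 0.76 of Rel. For Nfkbia they were the cystine carrier gene Ctns (r = 0.996), Gm4604 (r = 0.986) and Zbp1, a sensor of left-handed nucleic acids (r = 0.977), with log2 fold changes of -0.32, -0.29 and -0.26. The libraries share the 2 groups, and nothing more is read from so few of them.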

How the data were processed

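RNA-seq counts of 6 mouse colon libraries (3 KO, 3 WT) were read from 1 deposited table. Its library columns are deposited as raw read counts, in whole numbers. Per the labels' protocols, TopHat 2.1.0 aligned the reads to mm10, HTSeq 0.5.4p5 and samtools 1.3.1 counted them, and edgeR 3.4.2 made the test. Bowtie 0.12.2 and mm8 beside mm10 appear in the submitters' processing notes, and the file headers of the comparison follow DESeq2. No source used here states the strand setting. The authors' deposited mean signal, log2 fold change, its standard error and statistic (score columns), p-value and adjusted p-value enter only sentences that name the authors' deposited table.

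Counts were filtered with filterByExpr, scaled by TMM and tested in edgeR 4.0.16 (R 4.3.3) by quasi-likelihood with group as the only term and Benjamini-Hochberg adjustment over 14180 genes, threshold 0.05. Standard errors were derived from the log2 fold change and its F statistic, and 95% intervals use the moderated degrees of freedom. DESeq2 1.42.0 (where it gave no adjusted p, none was filled in), the edgeR exact test and limma-voom (limma 3.58.1) were alternatives, with other scalings, filters, a replicate block and the omission of each library. The scripts were tested on simulated data. The members and lists were chosen with earlier results of these data known. The genes named by rule are the 10 members, Smad4, up to 3 genes of each pathway list by unadjusted p, and the markers Epcam, Col1a1 and Cd79a. The 3 genes most correlated with the member of smallest p in each direction were also named by rule. Named outside the rule were Lyz2 and Dcn, of smallest p in their marker lists. Lta, Cd14 and Tnfrsf1b were also named outside it, after their values were seen. Promoter sequences are from RefSeq (GRCm38.p6), loci and exon lengths from GENCODE M21. "Rose" is used of genes past a threshold of the tool named. P-values of the fits set the group difference against the spread between these libraries, as moderated over all genes. No pair of libraries within a group agreed within sampling noise.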

Additional observations from a re-analysis of the deposited data

How the results depend on the processing

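The 10 genes were refitted under 23 settings, of which 7 (DESeq2 without each library or with a replicate block) were added after seeing the data. Of 230 such values, 213 kept their direction and their side of the threshold, 5 passed it and 12 changed sign, all of them for Relb or Nfkbib, and no scaling changed a sign. Relb was at 0.00047 with no count filter and 4.3e-05 without immunoglobulin, T cell receptor and mitochondrial genes. Over edgeR fits without 1 library it ranged from -0.105 to 0.0807, and Nfkbib from -0.0564 to 0.0358. With DESeq2, Relb was at 0.0419 without KO replicate 1, 0.0228 without KO replicate 3 and 0.0861 without WT replicate 3, and Nfkbib at 0.0122 without KO replicate 1 and 0.0413 without WT replicate 3. Of the 10 genes, 1 was called by DESeq2 and 1 by the edgeR exact test (Rel in both), and 0 to 1 without 1 library with DESeq2. The members at an unadjusted p under 0.05 numbered 4. Without 1 library they numbered 3 to 4 in edgeR and 2 to 4 with DESeq2. They numbered 5 with RLE scaling and 5 without immunoglobulin, T cell receptor and mitochondrial genes. The share of all genes past that p was not counted in these refits.

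Over all genes the quasi-likelihood count of 0 (1211 at an unadjusted p under 0.05) became 157 with no count filter, 92 at a threshold of 0.1, 327 with DESeq2, 384 with the exact test and 245 with DESeq2 and a replicate block. Without 1 library it was 0 to 266 (266 without KO replicate 3, 17 without WT replicate 1), and with DESeq2 139, 220 and 370 without KO replicates 1, 2 and 3 and 487, 219 and 222 without WT replicates 1, 2 and 3. The pathway lists held 16 genes at an unadjusted p under 0.05, and 12 to 28 without 1 library (28 without WT replicate 1, and 25 with DESeq2). The cause was not tested.

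The replicate numbers share no stated litter or day, and deviations of same-numbered libraries correlated at -0.011, -0.141 and 0.173, so they were not taken as pairs. KO replicate 1 correlated best with WT replicate 2 and KO replicate 2 with WT replicate 1. With a replicate block, edgeR called 0 genes and 3 of the 10 had an unadjusted p under 0.05, and DESeq2 gave Rel an adjusted p of 0.223.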
